A study of Mus musculus with 36 samples.

Results

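Liver RNA of mice fasted for 24 h was compared between mice labelled AAKO, whose white fat lacks the triglyceride lipase ATGL, the product of Pnpla2, and mice labelled CTRL. The comparison was chosen by the sample titles and holds 12 of the 36 arrays of the study: 6 arrays of AAKO and 6 of CTRL, both from experiment 1. All mice were males on a C57Bl/6J background, had a standard rodent diet outside the fast and were killed in their dark phase, at Zeitgeber time 16. The other 24 arrays hold both genotypes fed freely without treatment (experiment 2, 12 arrays) and both genotypes fed and given the beta 3 adrenergic agonist CL316243 (3 mg/kg) by gavage at Zeitgeber time 10 (experiment 1, 12 arrays). The age of the mice, the promoter or Cre line behind the deletion and the exact genotype of the CTRL mice are not given in the sources used here. The labels number the arrays of a group as replicates without stating that each came from a separate mouse, so the p-values measure only the spread between these samples, which may be technical. Each array was a single-colour Agilent oligonucleotide array of total RNA, and the number of arrays limits the precision.

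During a fast, adipocytes break down stored triglyceride, ATGL takes the first step, and the fatty acids released travel to the liver. There they are shortened in mitochondria and peroxisomes, turned into ketone bodies, or stored again in lipid droplets. Many of the genes of these routes are targets of PPARα, a nuclear receptor of hepatocytes that binds fatty acids. The fasting liver also makes glucose from amino acids and glycerol, a programme driven by glucagon and glucocorticoids and held back by insulin.

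Values below are log2 of the processed spot signal minus that of the 75th percentile on its array, so 0 is the brightness of that percentile and 1 unit is a doubling. A difference is AAKO minus CTRL with its standard error from limma, and a gene is called at a Benjamini-Hochberg adjusted p under 0.05 over 24098 tested genes, each represented by 1 probe. Levels of different probes are not comparable with each other, and probe positions are on the mouse assembly mm9 as the files give them. The exon or UTR each probe falls in is not given in the sources used here.

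Between 58.5% and 65.7% of the probes were well above background on the 12 arrays. All 9 hepatocyte markers, among them Alb (albumin) and Ttr (transthyretin), were well above background on every array. The Pnpla2 signal in liver, which does not test a deletion in adipose tissue, lay at 5.49 to 6.86 (median 5.95) in CTRL and 7.12 to 7.48 (median 7.32) in AAKO, a difference of 1.30 ± 0.19 with no overlap (adjusted p = 8.3e-07). In a principal component analysis of the 12 arrays, the first component held 57.2% of the variance and separated AAKO arrays, at 44.9 to 65.2, from 5 of the CTRL arrays, at -71.3 to -60.7. CTRL replicate 2 stood between them at 5.66. It was the CTRL array nearest to the AAKO mean for 63.3% of the called genes, it had the lowest share of probes well above background in its group (61.8%), and it shared a slide with AAKO replicate 4, the lowest of all at 58.5%. Without CTRL replicate 2, 12457 genes were called, against 11848 with it, and 11565 genes were called in the same direction in both fits.

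**Figure D1:**
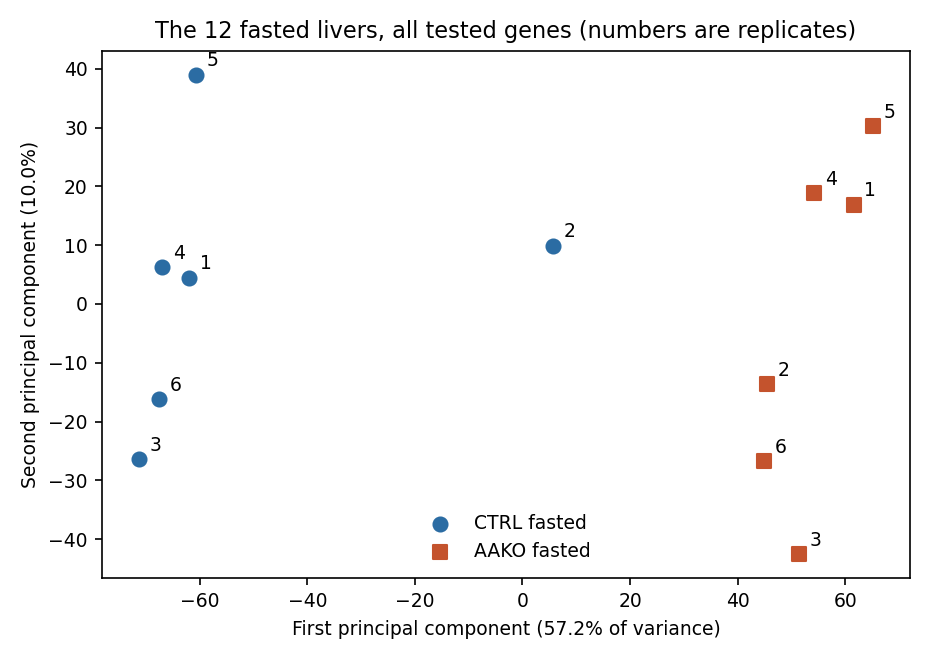
Position of the 12 fasted livers on the first and second principal components of all tested genes (horizontal and vertical axis, arbitrary units), with CTRL as circles, AAKO as squares and the replicate number beside each point. The AAKO arrays lie between 44.9 and 65.2 on the first component, 5 CTRL arrays lie between -71.3 and -60.7, and CTRL replicate 2 lies at 5.66.

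The 2 genotypes differed widely in the fasted state. Of 24098 genes, 11848 (49.2%) were called, 5279 (21.9%) higher in AAKO and 6569 (27.3%) lower, while the median difference over all tested genes was -0.03. At least 2-fold, 1136 genes were higher and 1549 lower, and at least 8-fold 58 were higher and 51 lower. In 5119 genes (21.2%) the 6 AAKO values did not overlap the 6 CTRL values. With calls this common, a list of genes with about 1 member in 2 called does not stand out from the array as a whole, and each list below is read against these shares. The wash batch divided each group into 3 and 3: 11799 of the called genes had the same sign within both batches, and 6845 genes were called within batch 1 alone and 4520 within batch 2 alone. CTRL replicate 2 is 1 of the 3 CTRL arrays of batch 2, and its part in the batch 2 counts here and below was not tested. Bulk RNA cannot tell fewer cells of a type from less RNA per cell, which holds for every gene below.

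**Figure D2:**
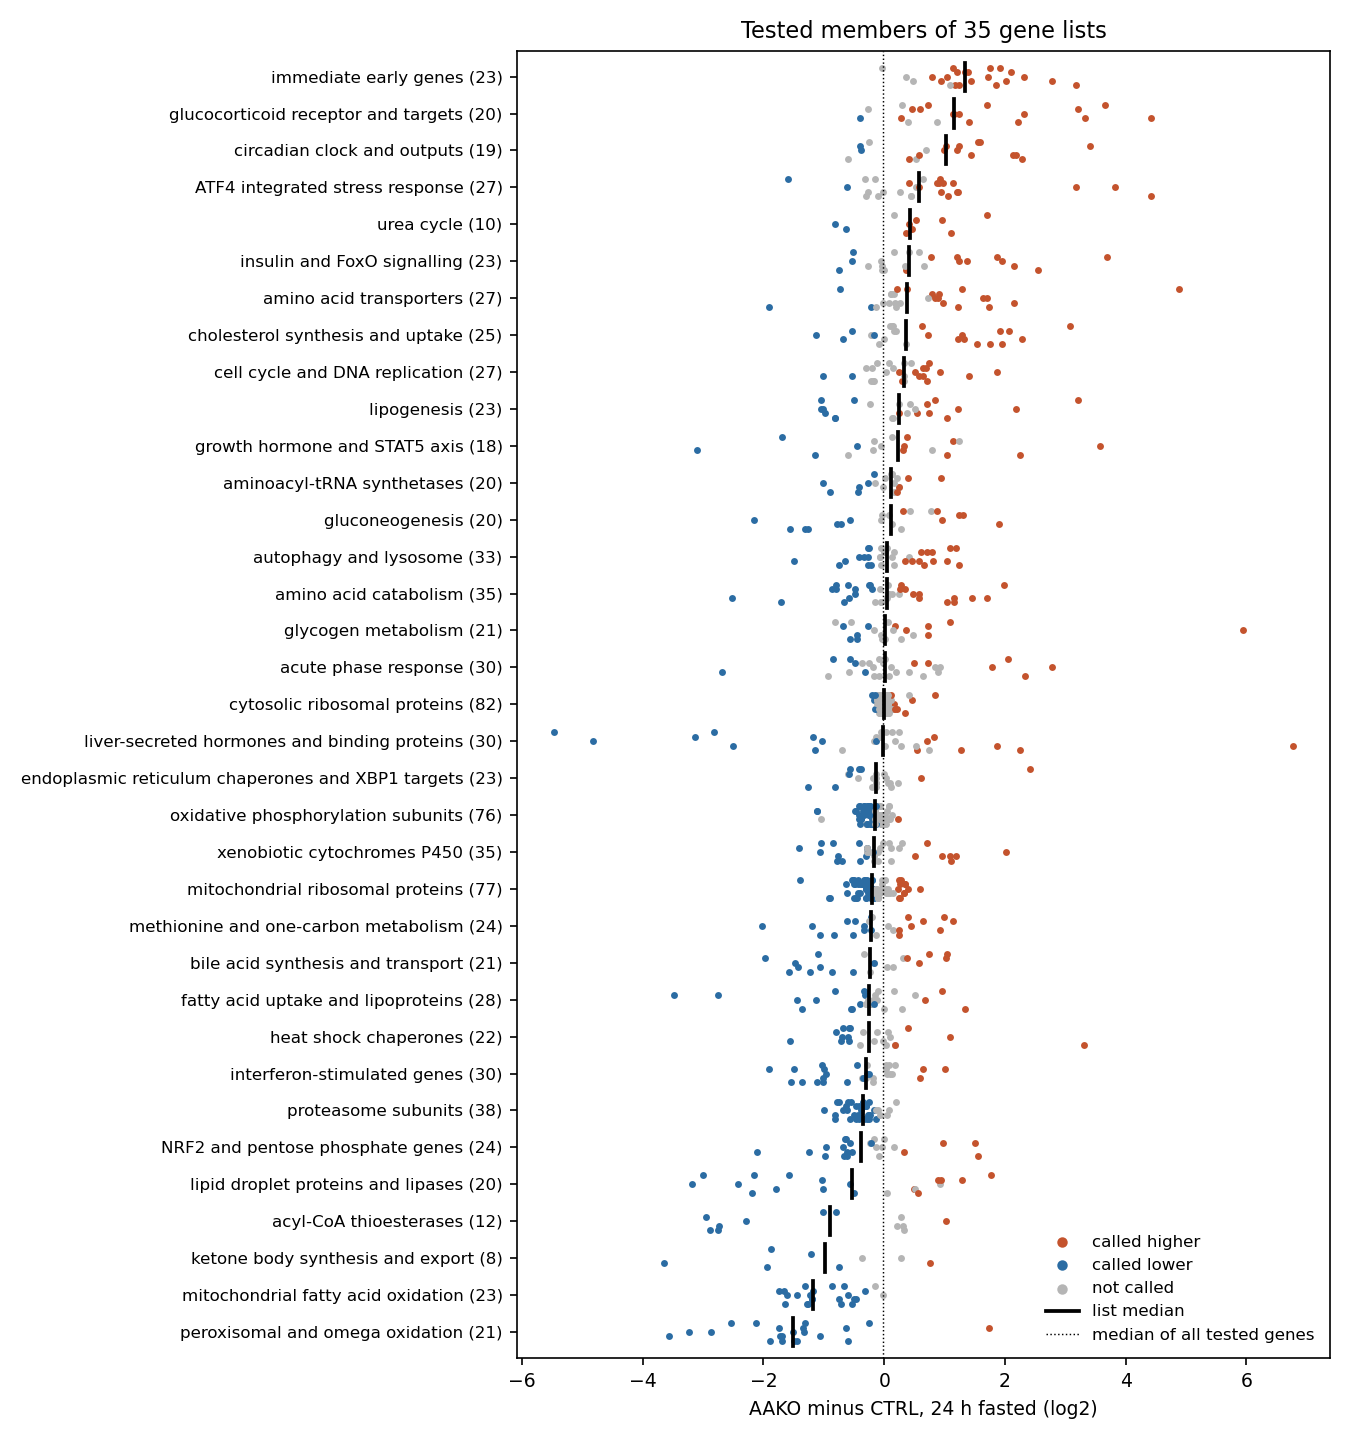
Difference between AAKO and CTRL in fasted liver (horizontal axis, log2) for each tested member of 35 gene lists (rows, with the number tested), coloured by whether the member was called higher, called lower or not called, with the list median as a bar. Peroxisomal and omega oxidation has the lowest median at -1.51 and immediate early genes the highest at 1.34, beside a median of -0.03 for all tested genes (dotted line).

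Genes that oxidise fatty acids were lower in AAKO. Among mitochondrial genes of the pathway, 21 of 23 were lower and 0 higher, with a median difference of -1.17. Slc25a20, the carrier that brings acylcarnitines into mitochondria, lay at 2.91 to 3.43 (median 3.16) in CTRL and 1.25 to 2.04 (median 1.5) in AAKO. The groups were apart, and Slc25a20 was 3.05-fold lower (difference -1.61 ± 0.12, adjusted p = 2.4e-12). Eci1, an enoyl-CoA isomerase for unsaturated fatty acids, was 3.36-fold lower (adjusted p = 1.2e-14). Hadh, the dehydrogenase for short acyl chains, was 3.15-fold lower (1.2e-12). Cpt1a, the enzyme that commits fatty acids to mitochondrial entry, differed by -0.15 ± 0.11: its signal ran from 6.91 to 7.07 (median 6.99) in CTRL and from 6.60 to 7.03 (median 6.89) in AAKO, overlapping, and it was not called (adjusted p = 0.28). Echs1, at -0.02, was the only other tested member without a call.

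The peroxisomal and omega-oxidation list had the lowest median of the 35 lists, -1.51. All but 1 of its 21 tested members were called lower. Ehhadh, the bifunctional enzyme of peroxisomal beta-oxidation (probe chr16:21761914-21761973), lay at 6.59 to 7.90 (median 7.39) in CTRL and 3.23 to 4.52 (median 3.75) in AAKO. Every CTRL array was above every AAKO array, and Ehhadh was 11.9-fold lower (difference -3.57 ± 0.24, adjusted p = 3.0e-13). Cyp4a14, a fatty acid omega-hydroxylase (probe chr4:115168609-115168668), ran at 2.45 to 3.10 (median 2.84) in CTRL and -1.98 to 0.64 (median -0.19) in AAKO, again apart, a 9.38-fold difference (adjusted p = 3.6e-09). Its relative Cyp4a10 was 3.24-fold lower, with 7.66 to 8.52 (median 8.16) in CTRL and 5.63 to 6.99 (median 6.49) in AAKO (adjusted p = 4.2e-05). The Cyp4a genes have close copies, from which their probes may take signal. The member that was higher was Nudt7, a peroxisomal hydrolase of coenzyme A, at 1.74; it is named here after its value was seen.

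Of the ketone body genes, 5 of 8 tested members of the list were lower and 1 was higher, the transporter Slc16a6 at 0.76, with a list median of -0.97. Bdh1, which interconverts acetoacetate and beta-hydroxybutyrate (probe chr16:31457378-31457437), lay at 4.33 to 5.73 (median 5.59) in CTRL and 0.92 to 2.84 (median 1.61) in AAKO and was 12.6-fold lower (difference -3.65 ± 0.24, adjusted p = 2.9e-13). Its lowest CTRL value belonged to replicate 2 and was still above all AAKO values. Acat1, the thiolase that makes acetoacetyl-CoA, was 3.86-fold lower (1.2e-15). The cytosolic dehydrogenase Bdh2 differed by 0.28 and was not called (adjusted p = 0.25).

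Acyl-CoA thioesterases release free fatty acids from coenzyme A. Of 12 tested, 7 were lower, 1 was higher (Acot11, 1.03) and the median was -0.90. Acot1, the cytosolic form, lay at 5.41 to 7.59 (median 7.30) in CTRL and 3.05 to 5.14 (median 3.93) in AAKO, 7.39-fold lower (adjusted p = 1.3e-07). The mitochondrial Acot2 ran at 1.04 to 3.50 (median 2.79) in CTRL and -0.64 to 0.77 (median -0.24) in AAKO, 6.75-fold lower (2.0e-09), and the peroxisomal Acot5 was 7.72-fold lower by its brightest probe (3.1e-08) and differed by -0.69 by its second (adjusted p = 0.0054). In these genes CTRL replicate 5 gave the lowest CTRL value, above all AAKO values. Without CTRL replicate 2, 4 members of the list were called higher and 7 lower.

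**Figure D3:**
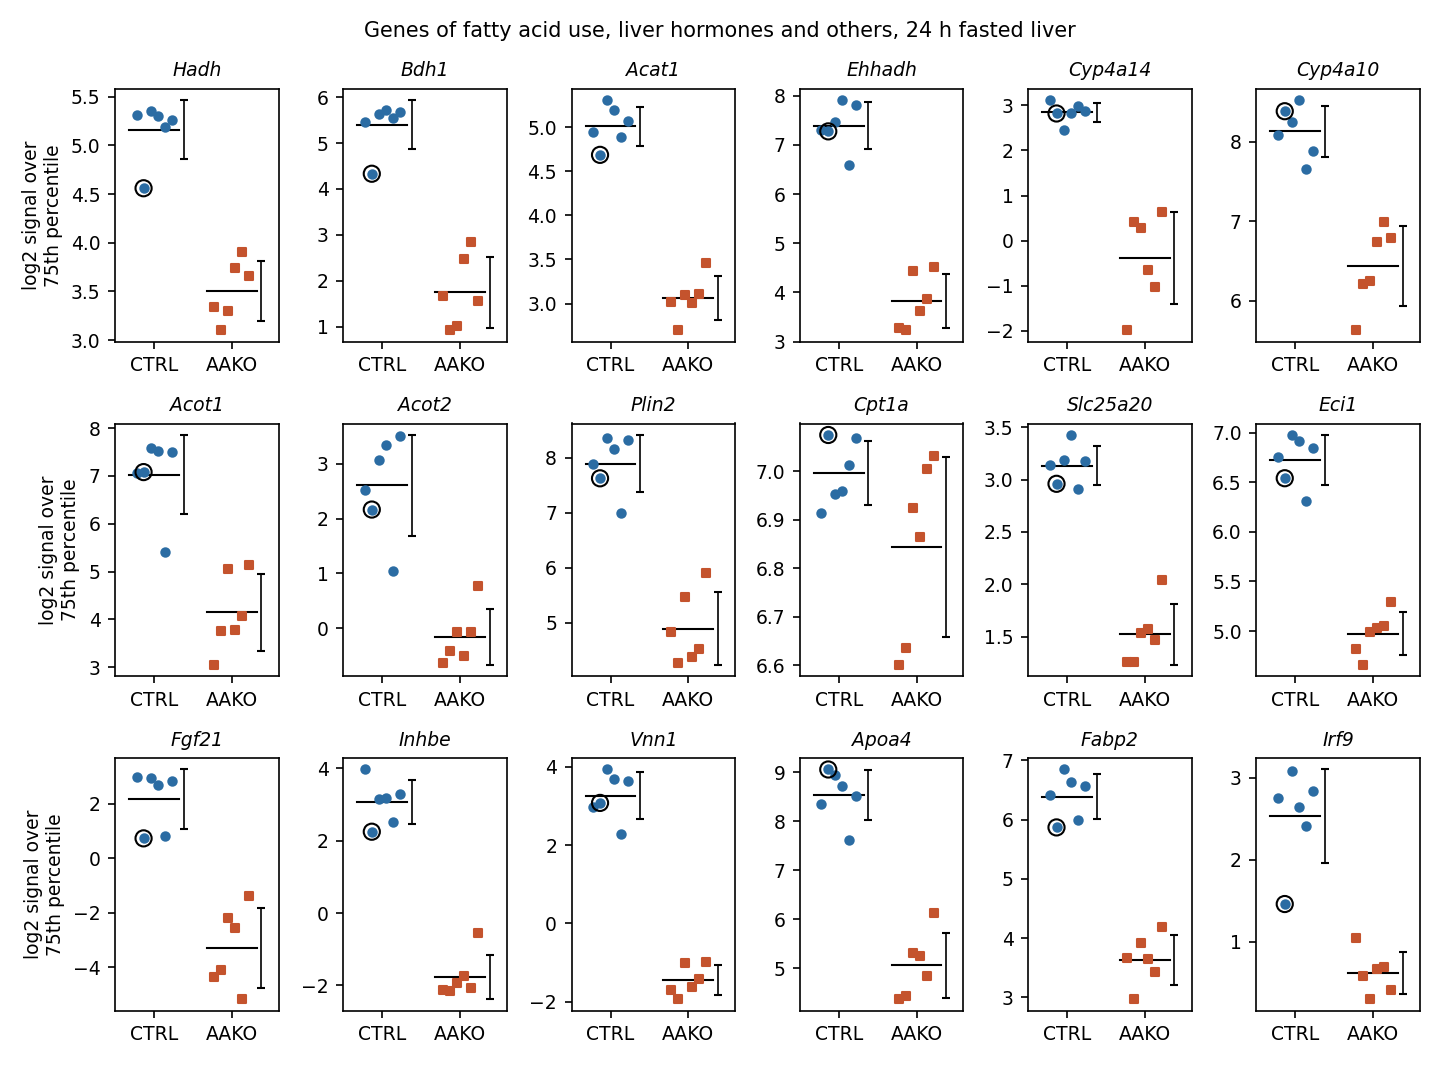
Signal of 18 genes in each fasted liver (vertical axes, log2 with the 75th percentile of each array at 0, scaled per gene), with CTRL as circles, AAKO as squares, the group mean as a line, the SD over 6 arrays as a bar, and CTRL replicate 2 ringed. In Bdh1, Ehhadh, Fgf21 and Vnn1 all CTRL arrays lie above all AAKO arrays, and in Cpt1a the groups overlap.

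Lipid droplet genes divided. Plin2, the perilipin that coats hepatocyte droplets (probe chr4:86302847-86302906), lay at 7.0 to 8.36 (median 8.03) in CTRL and 4.26 to 5.91 (median 4.69) in AAKO. The groups were apart and Plin2 was 7.98-fold lower (difference -3.0 ± 0.25, adjusted p = 2.1e-11). G0s2, an inhibitor of ATGL, was 9.09-fold lower (8.6e-05), with -0.85 to 2.91 (median -0.07) in AAKO against 2.35 to 4.93 (median 3.89) in CTRL, and 2 AAKO arrays inside the CTRL range. Plin5, the perilipin that ties droplets to mitochondria, ran from 6.14 to 8.10 (median 7.32) in CTRL and from 6.37 to 7.22 (median 6.70) in AAKO, overlapping, and its call (difference -0.56 ± 0.21, adjusted p = 0.025) was lost without any 1 of CTRL replicates 2 and 3 and AAKO replicates 2, 4 and 5 (adjusted p 0.052 to 0.094) and in a fit of the 12 fasted arrays alone (0.15). Over the list, 11 of 20 were lower and 6 higher, with a median of -0.53. The higher members include Pnpla2 and its relative Pnpla3 (1.76).

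In fatty acid uptake and lipoprotein genes, 13 of 28 were lower, 3 higher and 12 not called (median -0.25). Apoa4, an apolipoprotein of triglyceride-rich particles, lay at 7.63 to 9.06 (median 8.62) in CTRL and 4.37 to 6.14 (median 5.05) in AAKO, 11.2-fold lower with no overlap (adjusted p = 7.1e-12). Fabp2, a fatty acid binding protein, was 6.72-fold lower (6.3e-13). Cd36, a fatty acid transporter, differed by -0.30 ± 0.25 and the lipoprotein receptor Vldlr by -0.26 ± 0.40; neither was called (adjusted p = 0.33 and 0.62), although a second Vldlr probe gave -0.90 (adjusted p = 0.045).

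Secreted factors of the liver held the lowest and the highest fitted difference of the 24098 genes. Fgf21, the fasting hormone made by hepatocytes (probe chr7:52869305-52869364), lay at 0.73 to 2.98 (median 2.77) in CTRL and -5.17 to -1.39 (median -3.33) in AAKO. CTRL replicates 2 and 5 were the 2 lowest of their group and still lay above every AAKO array. Its probe was well above background on all 6 CTRL arrays and on 5 of 6 AAKO arrays. Fgf21 was 44.2-fold lower (difference -5.47 ± 0.59, adjusted p = 4.3e-09), with -4.77 within wash batch 1 and -6.16 within batch 2. Inhbe, which encodes the activin E subunit (probe chr10:126786719-126786778), ran at 2.25 to 3.97 (median 3.16) in CTRL and -2.14 to -0.54 (median -2.01) in AAKO, 28.3-fold lower (difference -4.82 ± 0.31, adjusted p = 1.0e-13). At the other end, Pappa2, a protease that cleaves insulin-like growth factor binding proteins (probe chr1:160641903-160641962), was above the background threshold on all 6 AAKO arrays and on 0 of 6 CTRL arrays. By this probe it was at least 77.2-fold higher in AAKO, where "at least" sets the AAKO mean against the faintest detectable signal of each CTRL array or the probe's own, whichever was higher (adjusted p = 1.0e-13). A second Pappa2 probe differed by 3.06 on the log2 scale, less than the bound of 6.27 from the first, so the size depends on the probe. Of 30 hormones and binding proteins tested, 7 were higher and 9 lower, and the list median was -0.02.

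Outside the lists, the lowest genes included Vnn1, a pantetheinase (probe chr10:23624524-23624583), at 2.29 to 3.93 (median 3.36) in CTRL and -1.93 to -0.98 (median -1.52) in AAKO. It was 26.2-fold lower (difference -4.71 ± 0.24, adjusted p = 1.2e-15). The melatonin receptor gene Mtnr1a was 13.2-fold lower and the Toll-like receptor gene Tlr12 15.7-fold lower. Spon2, a secreted matrix protein, was 22.7-fold lower, Hdhd3 13-fold and Ly6d 13-fold, each with groups apart. Rad51b, a DNA repair gene, was 21.3-fold lower by its brightest probe (probe chr12:80915000-80915059), but its second probe was called in the opposite direction (1.58, adjusted p = 0.0028), so it has no single direction here. Among the highest genes, Scin, which encodes an actin-severing protein, was at least 13.8-fold higher and the long noncoding RNA Rubie at least 24.9-fold higher, both above background on 0 of 6 CTRL arrays. Fibin was 24.7-fold higher, Rasd2 21.2-fold, the aldo-keto reductase Akr1b7 20.1-fold and the kinase gene Map3k6 17.6-fold, each with groups apart.

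The ATF4 response is the programme that follows amino acid shortage or other stress through phosphorylation of eIF2. In its list 14 of 27 were higher and 2 lower, with a median of 0.58. Ddit4, an inhibitor of mTORC1 signalling that glucocorticoids also induce (probe chr10:59412486-59412545), lay at 2.81 to 7.58 (median 3.66) in CTRL and 8.67 to 8.86 (median 8.72) in AAKO. The AAKO arrays spanned less than 0.2, the highest CTRL value was that of replicate 2, and Ddit4 was 21.3-fold higher (difference 4.42 ± 0.47, adjusted p = 3.8e-09). Chac1, a glutathione-degrading enzyme (probe chr2:119179990-119180049), ran at -0.42 to 3.04 (median 0.12) in CTRL and 3.41 to 5.64 (median 4.33) in AAKO, 14.1-fold higher (1.6e-07). CTRL replicate 2, at 3.04, was the only CTRL value near the AAKO range. Atf4 itself differed by 0.41 ± 0.10 (adjusted p = 9.9e-04), and Trib3, a pseudokinase of the same programme, by 0.44 ± 0.32 (adjusted p = 0.26, not called).

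Among amino acid transporters, 14 of 27 were higher and 3 lower (median 0.38). Slc7a6, a carrier of cationic and large neutral amino acids, lay at -6.50 to -0.83 (median -4.52) in CTRL and 0.09 to 0.93 (median 0.67) in AAKO. It was 29.5-fold higher (adjusted p = 2.8e-09), while its probe was well above background on 4 of the 6 CTRL arrays. The cationic amino acid carriers Slc7a1 and Slc7a2 were 4.45-fold and 3.25-fold higher. In the urea cycle list, which shares Slc7a2, 7 of 10 were higher and 2 lower (median 0.44). Nags, the enzyme that makes the activator of Cps1, was 2.16-fold higher, Cps1 1.44-fold and Ass1 1.33-fold. Amino acid catabolism was mixed, with 12 of 35 higher and 13 lower (median 0.05). Sds, serine dehydratase, lay at 4.21 to 5.89 (median 5.36) in CTRL and 6.70 to 7.56 (median 7.25) in AAKO, 3.94-fold higher (3.6e-09). Tat, tyrosine aminotransferase, was 2.23-fold higher and Tdo2, tryptophan dioxygenase, 1.5-fold, whereas Dpys, of pyrimidine breakdown, was 5.71-fold lower (2.3e-17).

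The promoters of the genes with the largest differences were searched for short words. Shown are 4 of them, picked because the same word stood in 2 genes among the lowest and 2 among the highest. Other named genes held the word too: Got1 (1.90) and Herpud1 (2.42), both called higher, and G6pc and Vldlr, not called by their brightest probes. The sequences are from RefSeq on GRCm38.p6, run 5′ to 3′ along the gene and end at the base before its start, and the capitals mark TTGCATCA, the other strand of TGATGCAA, a word bound by C/EBP and ATF factors. Fgf21 (chr7:45615491-45615740, minus strand) and Inhbe (chr10:127351849-127352098, minus strand) were lower in AAKO, with differences of -5.47 and -4.82.
Fgf21: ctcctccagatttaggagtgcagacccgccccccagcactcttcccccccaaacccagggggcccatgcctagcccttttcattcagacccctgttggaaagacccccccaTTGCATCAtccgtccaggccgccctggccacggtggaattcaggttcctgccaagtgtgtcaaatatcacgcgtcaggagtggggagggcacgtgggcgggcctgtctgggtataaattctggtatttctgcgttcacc
Inhbe: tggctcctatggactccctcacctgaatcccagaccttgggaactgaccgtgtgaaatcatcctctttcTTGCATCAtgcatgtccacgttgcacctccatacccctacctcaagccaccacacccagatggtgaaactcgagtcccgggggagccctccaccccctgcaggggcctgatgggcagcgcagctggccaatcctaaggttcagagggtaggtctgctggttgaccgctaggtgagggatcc
Atf3 (chr1:191183334-191183583, minus strand) and Chac1 (chr2:119350992-119351241, plus strand) were higher, with differences of 3.17 and 3.82.
Atf3: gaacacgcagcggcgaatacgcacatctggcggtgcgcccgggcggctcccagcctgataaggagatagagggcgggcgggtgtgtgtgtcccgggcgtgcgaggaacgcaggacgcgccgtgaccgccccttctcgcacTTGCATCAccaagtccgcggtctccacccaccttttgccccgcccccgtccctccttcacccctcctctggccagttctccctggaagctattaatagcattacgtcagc
Chac1: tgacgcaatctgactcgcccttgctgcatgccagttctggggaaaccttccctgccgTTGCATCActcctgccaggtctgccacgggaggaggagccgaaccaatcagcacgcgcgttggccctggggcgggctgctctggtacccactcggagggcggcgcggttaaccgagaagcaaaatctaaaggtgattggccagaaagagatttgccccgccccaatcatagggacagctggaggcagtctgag

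The word TGATGCAA, on either strand, was in 294 of 32851 promoters of 300 bases in the RefSeq table (0.895%). It was in 3 of 83 promoters of the 100 genes lowest in AAKO (3.61%, in Fgf21, Inhbe and Gngt1) and in 2 of 86 of the 100 highest (2.33%, in Atf3 and Chac1). These promoters cover only 61 of the 100 lowest genes and 70 of the 100 highest, and some genes have more than 1 promoter. In the ATF4 list, whose members were chosen as known targets, it was in 5 of 29 promoters (17.2%). In the 17230 promoters of genes tested on the array its share was 0.731%, and the other words below stood at 0.476% (DR1), 2.59% (CRE), 8.87% (E-box) and 0.749% (D-box). The DR1 element of PPARα, 2 copies of AGGTCA 1 base apart with at most 1 of 12 letters changed, was in 182 promoters of the table (0.554%) and in 1 of 76 promoters (1.32%, Acot12) of the fatty acid oxidation, ketone, thioesterase and droplet lists, of which 64 of 84 genes were matched. A CRE, TGACGTCA, was in 1.79% of all promoters, 2.41% of those of the 100 lowest genes and 3.49% of those of the 100 highest. An E-box, CACGTG, was in 7.15%, 13.3% and 9.3%, and a D-box, TTATGTAA, in 0.938%, 2.41% and 0%, in the same order. A match is a description of the letters in this window, and no match says only that they are not there.

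Glucocorticoid-responsive, immediate early and clock genes had the highest list medians. These lists share members, which are counted in each, so their counts are not separate results. Per1 is in the glucocorticoid and clock lists and Dusp1 in the glucocorticoid and immediate early lists. Ddit4, Tat, Lpin1, Cdkn1a and Pik3r1 of the glucocorticoid list and Atf3 of the immediate early list also belong to other lists above or below. In the glucocorticoid list, 15 of 20 were higher and 1 lower, with a median of 1.15. Rgs16, a regulator of G protein signalling, lay at 2.52 to 5.94 (median 4.28) in CTRL and 7.58 to 8.22 (median 7.94) in AAKO, 12.6-fold higher with no overlap (adjusted p = 6.4e-04). Fkbp5, a classical glucocorticoid target, differed by 0.40 ± 0.26 and was not called by its brightest probe (adjusted p = 0.23). Its other probes gave 0.72 (not called, adjusted p = 0.082) and 2.56 (adjusted p = 5.1e-06). Tsc22d3, another such target, was 1.51-fold higher (adjusted p = 0.039), a call lost on leaving out any 1 of CTRL replicates 3 and 6 and AAKO replicates 1, 2 and 3 (adjusted p 0.055 to 0.13). Its second probe differed by 1.43.

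Of the 23 immediate early genes tested, 19 were higher and 0 lower, with a median of 1.34. Atf3, a stress-induced transcription factor (probe chr1:192994547-192994606), lay at -3.82 to -0.76 (median -3.21) in CTRL and -0.40 to 1.92 (median 0.03) in AAKO. It was 9.03-fold higher (difference 3.17 ± 0.40, adjusted p = 9.1e-08), and CTRL replicate 2 gave the highest CTRL value. Btg2, an antiproliferative gene, was 6.90-fold higher (1.1e-07), Fos 3.60-fold higher with no overlap, at -2.19 to -0.51 (median -1.61) in CTRL and 0.07 to 0.90 (median 0.28) in AAKO, and Jun 2.61-fold higher with overlap. Within wash batch 2 alone, 4 of 23 members of the immediate early list and 3 of 20 of the glucocorticoid list were called, beside 4520 of all 24098 genes.

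In the clock list, 13 of 19 were higher and 2 lower, with a median of 1.02. All mice were killed at 1 Zeitgeber time, so these are levels at 1 phase of the day. Ciart, a repressor of the clock, lay at -4.27 to 0.54 (median -2.30) in CTRL and 0.78 to 1.69 (median 1.30) in AAKO, 10.6-fold higher (2.8e-06), and its second probe differed by 1.69. Per3 was 4.86-fold higher (6.2e-07) and Per1, a period gene that glucocorticoids also induce, 2.36-fold higher by its brightest probe (4.0e-04), while a second Per1 probe gave 0.16 (adjusted p = 0.62). Arntl, the activator of the clock, differed by 0.52 ± 0.28 and was not called (adjusted p = 0.13), although it was called in a fit of the 12 fasted arrays alone (0.028).

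**Figure D4:**
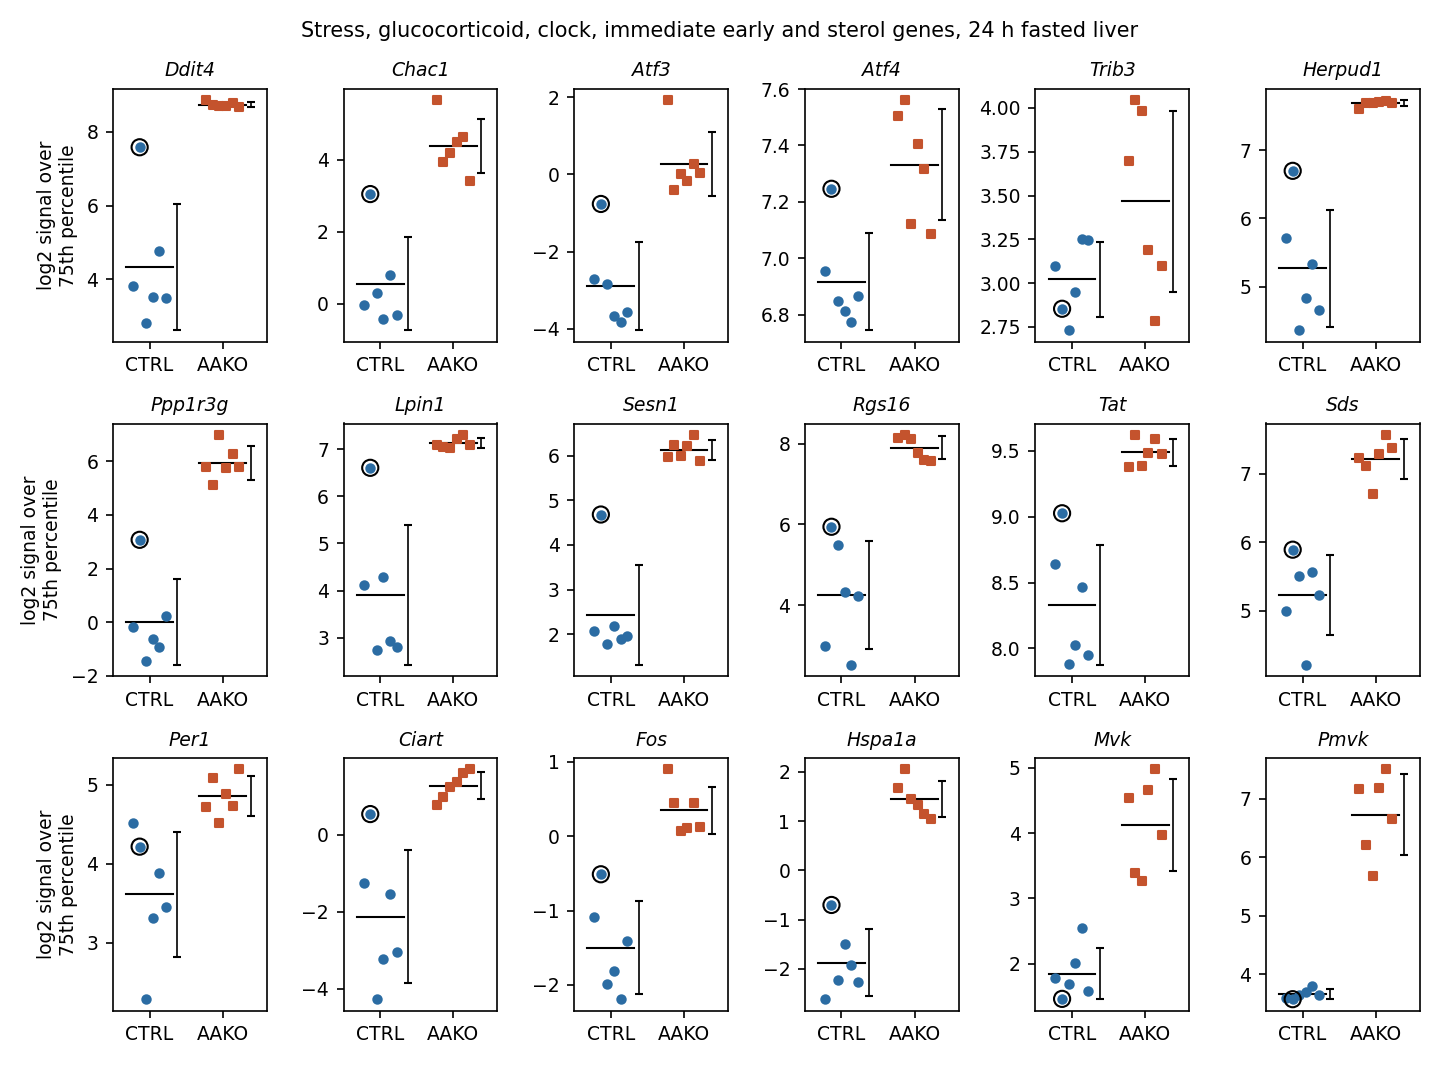
Signal of 18 genes of the stress, amino acid, glucocorticoid, clock, immediate early, heat shock and sterol lists in each fasted liver (vertical axes, log2 with the 75th percentile of each array at 0, scaled per gene), with CTRL as circles, AAKO as squares, the group mean as a line, the SD over 6 arrays as a bar, and CTRL replicate 2 ringed. CTRL replicate 2 is the CTRL array nearest to the AAKO arrays in Ddit4, Chac1, Atf3, Sesn1 and Lpin1, while in Trib3 the groups overlap.

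Among insulin and FoxO genes, 10 of 23 were higher and 3 lower (median 0.41). Sesn1, a stress-induced inhibitor of mTORC1, lay at 1.77 to 4.68 (median 2.02) in CTRL and 5.87 to 6.46 (median 6.11) in AAKO. It was 13-fold higher (4.7e-12), and 5 of the 6 CTRL arrays were tightly grouped with replicate 2 above them. Gadd45a, a growth arrest gene, was 5.86-fold higher with overlap (4.0e-06). Insr differed by 0.15 ± 0.11 and Irs2 by 0.65 ± 0.31, and neither was called (adjusted p = 0.26 and 0.082). Irs2 was called in a fit of the 12 fasted arrays alone (adjusted p = 0.012).

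Ppp1r3g, a glycogen-targeting subunit of protein phosphatase 1 (probe chr13:36061999-36062058), was well above background on all 12 arrays and was among the highest genes in AAKO. It lay at -1.46 to 3.07 (median -0.40) in CTRL and 5.13 to 6.99 (median 5.79) in AAKO. CTRL replicate 2 was again the highest CTRL array, at 3.07, and the difference was 5.94 ± 0.88, or 61.2-fold (adjusted p = 1.3e-06), with 6.69 and 5.18 within the 2 wash batches. The other glycogen genes were divided, with 6 of 21 higher, 5 lower and a median of 0.01. Pgm2, a phosphoglucomutase, was 2.13-fold higher. Gys2, liver glycogen synthase, differed by 0.48 ± 0.20 (adjusted p = 0.053) and was called in 5 other settings and on leaving out CTRL replicate 2 or AAKO replicate 2. Pygl, liver glycogen phosphorylase, was 1.21-fold lower (adjusted p = 0.020), a call lost without CTRL replicate 3 or AAKO replicate 2 (0.055 and 0.058).

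The gluconeogenesis list showed no common direction, with 6 of 20 higher, 7 lower and a median of 0.11. Pck1 and G6pc, which encode the enzymes that begin and end the pathway, differed by 0.42 ± 0.18 and 0.78 ± 0.39 and were not called (adjusted p = 0.055 and 0.10). Both were called in a fit of the 12 fasted arrays alone (0.029 and 0.0042), and Pck1 also on leaving out CTRL replicate 1 or 5. Got1, an aspartate aminotransferase, lay at 7.50 to 8.90 (median 7.88) in CTRL and 9.77 to 10.02 (median 9.90) in AAKO, 3.73-fold higher (9.6e-10). Gpd1, which links glycerol to gluconeogenesis, ran at 6.68 to 7.76 (median 7.51) in CTRL and 4.82 to 5.85 (median 5.20) in AAKO, 4.46-fold lower (3.4e-13). Both pairs of groups were apart.

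Lipogenic genes divided as well: 9 of 23 were higher and 7 lower (median 0.25). Lpin1, a phosphatidate phosphatase and transcriptional coactivator induced by glucocorticoids, lay at 2.74 to 6.60 (median 3.52) in CTRL and 7.03 to 7.30 (median 7.09) in AAKO, 9.30-fold higher (1.3e-06), and CTRL replicate 2 gave the highest CTRL value. Thrsp, a regulator of lipogenesis, was 4.56-fold higher with overlap (2.8e-05). Fasn, fatty acid synthase, was 1.67-fold higher with overlap (adjusted p = 0.018), a call lost without CTRL replicate 5 (0.076), and Scd1, stearoyl-CoA desaturase, differed by 0.12 ± 0.19 (not called, adjusted p = 0.64). Cholesterol synthesis genes were more often higher, 12 of 25 against 4 lower (median 0.37). The list median was not particular to the fast: it was 0.41 in fed mice, with 0 members called there, and 0.05 after CL316243. In 13 of the 25 genes the fasted difference was unlike the fed one by the interaction term. Pmvk, phosphomevalonate kinase, lay at 3.57 to 3.80 (median 3.64) in CTRL and 5.68 to 7.50 (median 6.91) in AAKO, 8.44-fold higher (6.2e-13), and Mvk, mevalonate kinase, was 4.85-fold higher (1.8e-09). Sqle, squalene epoxidase, was 2.49-fold higher with overlap (6.0e-05), and its second probe, at 0.93, was not called (adjusted p = 0.055).

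In the growth hormone axis, 7 of 18 were higher and 4 lower (median 0.22). Cux2, a transcription factor usually more abundant in female liver, lay at -3.14 to -0.71 (median -2.27) in CTRL and 0.60 to 1.82 (median 1.59) in AAKO, 11.9-fold higher with no overlap (8.8e-06). Elovl3, a fatty acid elongase more abundant in male liver, ran at 4.56 to 5.60 (median 5.38) in CTRL and 1.65 to 2.98 (median 1.99) in AAKO, 8.59-fold lower (9.8e-12). Ghr, the receptor, was 1.36-fold lower (3.4e-04), and Socs2, a feedback inhibitor, 4.75-fold higher by its brightest probe (9.0e-04). The other Socs2 probes gave 2.13 (adjusted p = 3.2e-04), 0.73 (not called, 0.053) and 0.35 (not called, 0.39).

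Bile acid genes were lower in 10 and higher in 5 of 21 (median -0.24). The transporters Abcc3 and Slco1b2 were 3.93-fold and 2.99-fold lower (3.5e-09 and 3.2e-10), and a second Slco1b2 probe differed by -4.26. Cyp7a1 and Cyp8b1, hydroxylases of bile acid synthesis, differed by 0.32 ± 0.42 and -0.24 ± 0.22 and were not called (adjusted p = 0.57 and 0.39). Among xenobiotic cytochromes P450 and their receptors, 12 of 35 were lower and 7 higher (median -0.17). Nr1i3, the receptor CAR, was 2.67-fold lower (5.6e-09), Cyp2c70 4.07-fold higher (3.4e-09) and Cyp2e1 1.14-fold lower (0.0026), while Cyp2b10, a target of CAR, differed by -0.29 ± 0.58 (not called, adjusted p = 0.71). The Cyp2 and Cyp3 genes have close relatives, and probes may take signal from them.

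Interferon-stimulated genes were lower in 15 of 30 and higher in 3 (median -0.30). Irf9, a subunit of the factor that interferon activates, lay at 1.46 to 3.08 (median 2.70) in CTRL and 0.30 to 1.05 (median 0.63) in AAKO, 3.77-fold lower with no overlap (2.2e-10). Oasl1 was 2.92-fold lower (2.8e-06), Ifit1 2.82-fold lower (3.9e-06) and Isg15 2.04-fold lower with overlap (1.8e-04). In the acute phase list, 6 of 30 were higher and 5 lower (median 0.01), against 49.2% of all genes called. Cd14, a receptor for bacterial lipopolysaccharide, was 6.88-fold higher (2.9e-07) and Il1rn, an antagonist of interleukin 1, 6.43-fold lower (5.0e-06), with a second probe at -1.41. Saa1, serum amyloid A, ran from 4.81 to 10.59 (median 6.26) in CTRL and from 5.32 to 10.09 (median 7.90) in AAKO and was not called (difference 0.90 ± 1.00, adjusted p = 0.49), and Saa2 differed by 0.85 ± 1.00 (adjusted p = 0.51).

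Of 10 neutrophil markers, 5 were called higher and 0 lower, beside 49.2% of all genes called and 21.9% called higher. Their median difference was 1.43, and their summed level on the log2 scale was 7.33 to 7.95 in CTRL and 7.68 to 8.33 in AAKO. Csf3r, which differed by 0.18, made up most of that sum in both genotypes. S100a8 lay at -3.68 to 4.10 (median -1.58) in CTRL and 0.58 to 4.85 (median 2.84) in AAKO, and Retnlg at -5.30 to 2.72 (median -2.95) in CTRL and -0.03 to 2.91 (median 1.71) in AAKO, both with overlap (differences 3.62 ± 1.02 and 3.86 ± 1.01, adjusted p = 0.0036 and 0.0019). CTRL replicate 2 gave the highest CTRL value of both S100a8 and Retnlg. The granule genes Mpo and Elane differed by -0.10 and 0.01 and were not called, and neither were Ly6g, Camp and Ltf. Of 7 monocyte and macrophage markers, 3 were lower (Ccr2, Cx3cr1 and Itgam), 1 was higher (Cd14) and 3 were not called (Lyz2, Cd68 and Ly6c2). Ccr2 was well above background on 5 CTRL arrays and on 0 AAKO arrays, and Cx3cr1 on 5 CTRL arrays and 2 AAKO arrays. Of 10 Kupffer cell markers 2 were higher (C1qa and C1qb), of 8 endothelial markers 3 were higher, led by Lyve1 at 1.83, and of 6 tested T cell markers 2 were lower. Cholangiocyte markers were lower in 3 of 6, stellate cell markers higher in 3 and lower in 1 of 11, and B cell, NK cell and mesothelial markers were called in 0 of 5, 4 and 3. Among adipocyte markers, Adipoq was lower (-1.03) and Plin1 and Fabp4 higher (0.94 and 0.96). Platelet markers were higher in 1 of 4, erythroid markers lower in 1 of 4 tested and pancreatic acinar markers lower in 2 of 3 tested. Hepatocyte markers were lower in 5 of 9 and higher in 1, Hnf4a, at 7.43 to 8.24 (median 7.55) in CTRL and 8.26 to 8.60 (median 8.46) in AAKO. The part of these cell types in the results was not tested.

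Genes of the NRF2 and pentose phosphate list were lower in 13 of 24 and higher in 4 (median -0.38). Nqo1, a quinone reductase, lay at -1.13 to -0.35 (median -0.49) in CTRL and -1.70 to -1.48 (median -1.55) in AAKO, 1.95-fold lower with no overlap (1.7e-07). Nfe2l2, which encodes NRF2, was 4.30-fold lower by its brightest probe (probe chr2:75513771-75513830, adjusted p = 2.2e-08), but a second probe was called in the opposite direction at 1.06 (adjusted p = 4.3e-05), so it has no single direction here. Abcc4, a transporter of the same programme, was 2.92-fold higher (1.2e-06). Gclc, of glutathione synthesis, differed by -0.23 ± 0.14 (not called, adjusted p = 0.17) and was called lower without CTRL replicate 2 (0.028).

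Most proteasome subunits were lower: 32 of 38 were called lower and 0 higher, against 27.3% of all genes lower. The sizes were small, with a list median of -0.35. Psma1, a subunit of the core, lay at 4.91 to 5.23 (median 4.95) in CTRL and 4.10 to 4.21 (median 4.20) in AAKO, 1.77-fold lower with no overlap (4.7e-12). Psmb9, an interferon-induced subunit, was 1.99-fold lower with overlap (3.2e-06). Within wash batches 1 and 2 alone, 19 and 14 of the 38 proteasome genes were called, beside 6845 and 4520 of all 24098 genes.

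Of 77 mitochondrial ribosomal proteins, 45 were lower and 12 higher (median -0.21), and of 76 subunits of oxidative phosphorylation 38 were lower and 1 higher (median -0.16). Mrps22 was 1.89-fold lower (6.4e-09), Mrpl35 2.62-fold lower (2.6e-07) and Cox6b2, a subunit better known from testis, 2.16-fold lower (7.0e-11). Cox7b2 was 2.17-fold lower, with its probe well above background on 3 AAKO arrays. Within wash batch 2 alone, 10 of 77 and 2 of 76 members of these lists were called, beside 4520 of all 24098 genes. Of the cytosolic ribosomal proteins, 69 of 82 were not called, 8 were higher and 5 lower, with a median of -0.0038. Rpl22l1 and Rpl12 were 1.8-fold and 1.38-fold higher. Aminoacyl-tRNA synthetases were higher in 4 and lower in 6 of 20 (median 0.11): Eprs was 1.93-fold higher, Sars 1.15-fold higher, Dars 2.02-fold lower, and Wars differed by 0.21 ± 0.11 (not called, adjusted p = 0.093; its second probe, at 0.30, was called at 0.044).

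Chaperones followed no single direction. In the endoplasmic reticulum list, 2 of 23 were higher and 6 lower (median -0.14). Herpud1, of protein degradation at the reticulum, lay at 4.36 to 6.70 (median 5.08) in CTRL and 7.60 to 7.73 (median 7.70) in AAKO, 5.36-fold higher (9.3e-10), and Xbp1 was 1.52-fold higher (1.7e-04), while Pdia4 was 2.41-fold lower (1.0e-05). Hspa5, the main chaperone of the reticulum, differed by 0.06 ± 0.14 (not called, adjusted p = 0.76). In the heat shock list, 9 of 22 were lower and 4 higher (median -0.26). Hspa1a, the inducible form, lay at -2.61 to -0.70 (median -2.07) in CTRL and 1.05 to 2.05 (median 1.39) in AAKO, 9.97-fold higher (1.1e-08), whereas its near-identical neighbour Hspa1b differed by -0.16 ± 0.29 (not called, adjusted p = 0.68), so the pair is uncertain. Dnajb4 was 2.96-fold lower and Hspa8, the constitutive form, 1.6-fold lower.

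Cell cycle genes were higher in 12 and lower in 2 of 27 (median 0.32), and 9 were called in all on leaving out CTRL replicate 4, AAKO replicate 4 or AAKO replicate 5. Ccne1, a cyclin of the start of DNA replication, was 3.65-fold higher (1.1e-07), the cell cycle inhibitor gene Cdkn1a 2.65-fold higher with overlap by its brightest probe (0.0038; second probe 0.84, not called, 0.061), Ccnd1 2.03-fold lower (5.1e-04), and the proliferation marker Mki67 differed by 0.45 ± 0.24 (not called, adjusted p = 0.13). Autophagy and lysosome genes were higher in 12 and lower in 10 of 33 (median 0.05). Ulk1, the kinase that starts autophagy, lay at 4.92 to 5.17 (median 4.96) in CTRL and 5.56 to 5.85 (median 5.74) in AAKO, 1.64-fold higher (9.9e-08), Sqstm1 was 1.38-fold higher (2.5e-05), and Lipa, the lysosomal acid lipase, 2.83-fold lower with no overlap (9.9e-14). Uvrag was 2.37-fold higher by its brightest probe, and its call was lost with the median over its probes (adjusted p = 0.12). In methionine and one-carbon metabolism, 11 of 24 were lower and 8 higher (median -0.21): Chdh was 2.29-fold lower by its brightest probe, Gnmt 1.19-fold higher, and Mat1a differed by 0.07 ± 0.12 (not called, adjusted p = 0.67). The other 3 Chdh probes differed by -0.53, -0.22 (not called, adjusted p = 0.11) and -0.70.

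The fasted difference was set against the genotype difference in the other conditions, which rest on other arrays. In fed mice, 19 of the 24098 genes were called (0.0788%). After CL316243, 3132 (13%) were called higher in AAKO and 2797 (11.6%) lower. The fasted difference itself was unlike the fed one in 8104 genes (33.6%) and unlike the CL316243 one in 7664 (31.8%), by the interaction terms of the same fit. The fed arrays are of experiment 2, and an effect of the experiment common to both genotypes cancels in the fasted against fed term. One that differs between the genotypes does not cancel and cannot be told apart from an effect of fasting. Of the 137 genes named by rule, 103 had a called difference between fasted and fed, and 84 between fasted and CL316243. Many of these genes were chosen for a large fasted difference, which enters both terms. High counts were therefore likely beforehand, and they cannot be read against the shares of all genes.

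The lists differed in how far the genotype difference extended to CL316243. In mitochondrial fatty acid oxidation the median was -1.17 fasted, -0.17 fed and -0.52 after CL316243, and 16 of 23 genes had a called interaction between fasting and CL316243. Thioesterases had a median of -0.90 fasted and -0.95 after CL316243, with 2 of 12 interactions called. Fgf21 differed by -5.47 fasted, -0.29 fed and -4.59 after CL316243, and its interaction with CL316243 was not called (adjusted p = 0.47). Inhbe differed by -2.5 and Bdh1 by -1.16 after CL316243, both smaller than in the fasted state (interaction adjusted p = 1.1e-04 and 1.9e-06). Hdhd3 and Sesn1 were -0.21 and -0.06 after CL316243 and not called there (interaction adjusted p = 2.4e-08 and 3.3e-08). Cyp4a10 was lower by a larger step after CL316243, -3.20, than in the fasted state (interaction adjusted p = 0.010).

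In endoplasmic reticulum chaperones, 19 of 23 were higher in AAKO after CL316243 (median 0.72), against 2 in the fasted state, and 19 interactions were called. Hspa5 differed by 1.07 after CL316243 (interaction adjusted p = 1.6e-04). Proteasome subunits, lower in the fasted state, had a median of 0.07 after CL316243 and 29 called interactions of 38, and mitochondrial ribosomal proteins had 50 of 77. The clock list had a median of -0.23 after CL316243 and 11 of 19 called interactions. Lipogenic genes had a median of -0.57 after CL316243, with 13 of 23 lower and 0 higher, and 10 called interactions.

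**Figure D5:**
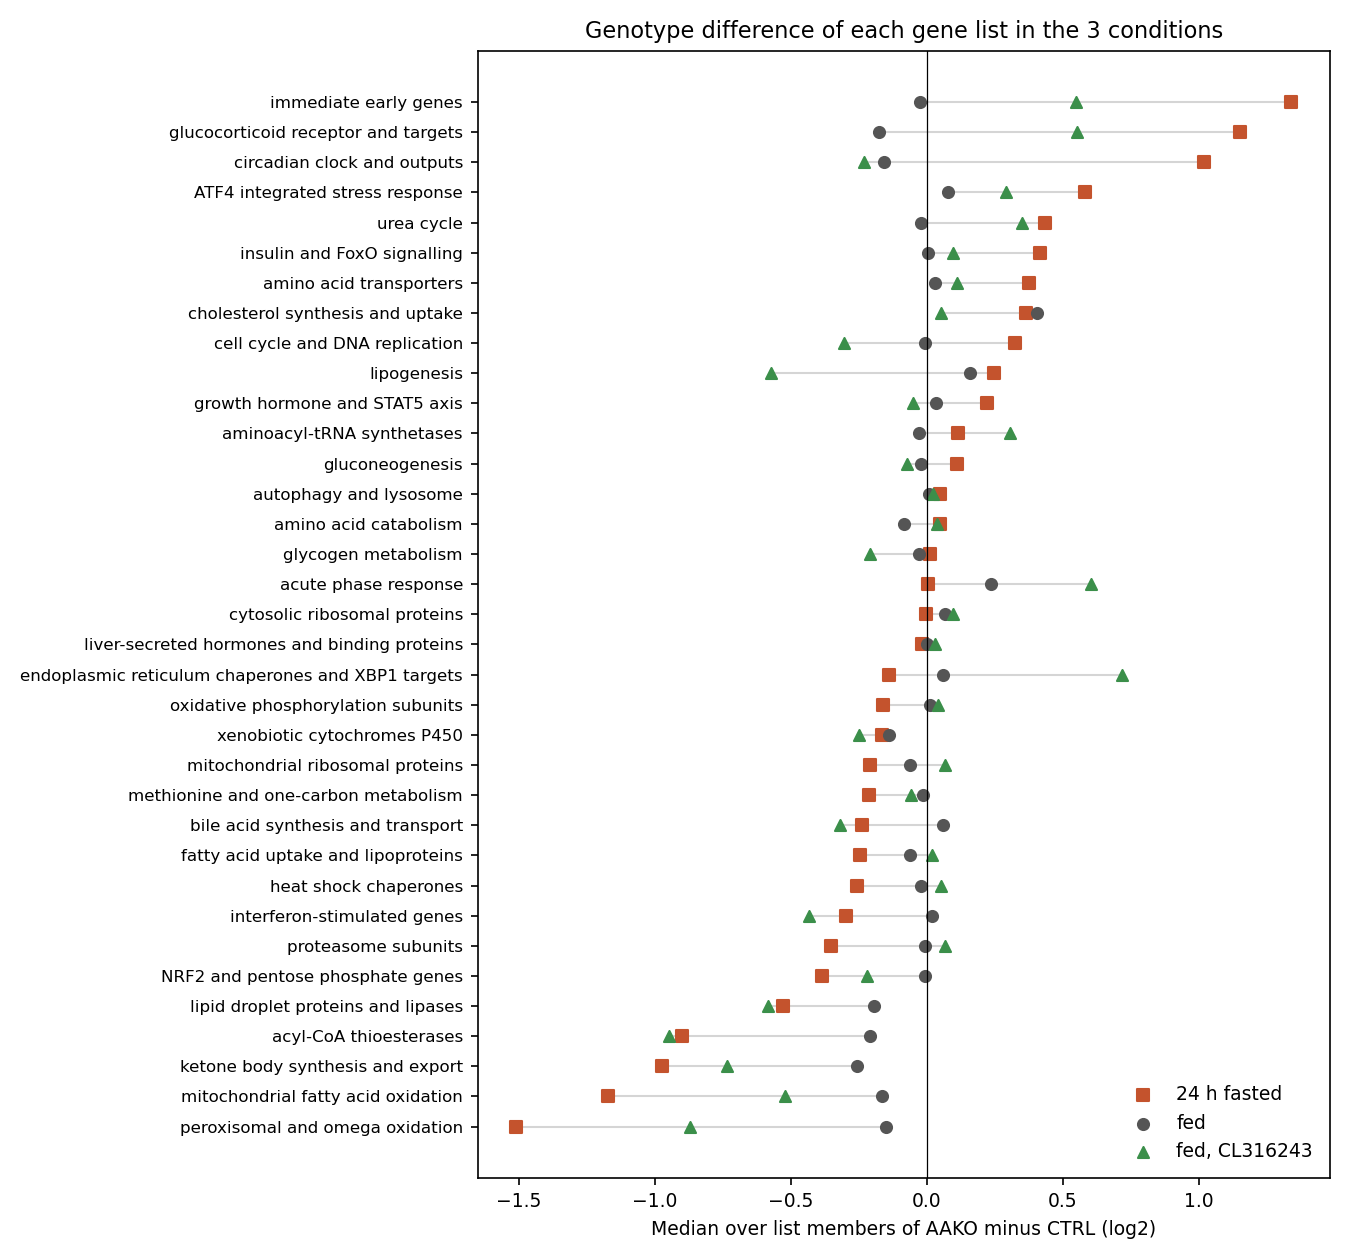
Median over the tested members of each of 35 gene lists (rows) of the difference between AAKO and CTRL (horizontal axis, log2) in fasted (squares), fed (circles) and CL316243-treated mice (triangles). The fed medians lie between -0.26 and 0.41, the latter of the cholesterol list, which lies at 0.37 fasted. The endoplasmic reticulum chaperones lie at -0.14 fasted and 0.72 after CL316243, and thioesterases at -0.90 and -0.95.

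A few genes differed between the genotypes in every condition. Of the 19 genes called in fed mice, 12 were also called with the same sign in the fasted state. Vnn1 differed by -4.71 fasted, -1.35 fed and -2.48 after CL316243, and Mtnr1a by -3.72, -1.61 and -4.36. In Vnn1 the fasted difference was larger than the fed one (interaction adjusted p = 1.0e-08). Zfp949, a zinc finger gene on chromosome 9 (probe chr9:88465683-88465742), differed by 1.24 fasted, 1.1 fed and 1.13 after CL316243, and neither interaction was called (adjusted p = 0.49 and 0.61). In the fasted arrays Zfp949 lay at -0.65 to -0.27 (median -0.42) in CTRL and 0.62 to 1.00 (median 0.76) in AAKO, with no overlap. A second transcript probed next to it (probe chr9:88465036-88465095) differed by 1.19, 1.05 and 1.20. Kng2 and Kng1, the kininogen genes on chromosome 16, were higher in AAKO in all 3 conditions, by 0.74 and 0.33 in the fasted state. Zfp949, its neighbour and the kininogen genes are named after their values were seen.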

How the data were processed

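Liver total RNA (200 ng per sample) was labelled with Cy3 and hybridised to single-colour Agilent arrays of design 074809, per the labels and file headers. The deposited intensity values were made by Agilent Feature Extraction 10.10.1.1, which corrected the background and removed a trend within each array, per the file headers; no scaling between arrays was recorded. The authors also deposited a table of log2 values for part of the probes, and it was used as an alternative. Its normalization is not named in the sources used here. Within each group the sorted values of all arrays were identical (largest difference 0), so the arrays of a group share the same distribution. The groups do not: the median was 6.97 in fasted CTRL and 7.01 in fasted AAKO. Shifts between groups therefore remain in that table. The tool limma is named in the submitters' processing notes.

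From the intensities, control spots and outlier-marked spots (0.127%) were left out, spots of a probe were averaged, and log2 minus the 75th percentile of the array was taken. No spot was saturated. Of 56605 probes, 32994 were named through their RefSeq accession and the GRCm38.p6 gene list, the others keeping their deposited name. The brightest probe of a gene over all 36 arrays stood for it, and it was tested if well above background on at least 5 of 6 arrays of any group (24098 of 37061 genes). All 36 arrays entered 1 limma 3.58.1 fit (R 4.3.3, with data.table, version 1.17.8) with 6 group means and the wash batch, two-sided, with Benjamini-Hochberg adjustment. The steps were tested on simulated data. Genes named in the text are the 10 highest and 10 lowest called genes whose groups did not overlap, whose probe was well above background on all 6 arrays of the higher group, whose sign was the same in both wash batches and whose symbol was not a Gm, Rik, LOC, accession or probe name, the 2 called members of each list with the largest difference, and preset key members of each list. Others named are exceptions chosen after their values were seen, as are the cell type markers named singly. The genes, lists and tests were chosen with earlier results of these data known. Same-numbered replicates did not pair: their correlations across the genotypes ran from -0.21 to 0.23. The alternatives were other samples in the fit, background corrections, normalizations, filters, probe rules, batch terms and left-out arrays. Some named genes are not reported here.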

Additional observations from a re-analysis of the deposited data

Results flagged for a closer look

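Among 274 pairs of a named gene and a fasted group, 27 values stood so far from the other 5 of their group that they passed Dixon's test, which chance passes in about 1 of 20 groups. CTRL replicate 2 held 17 of them. Its high values were Ppp1r3g at 3.07, Map3k6 at 3.67, Chac1 at 3.04, Sesn1 at 4.68, Gadd45a at -0.080, Atf3 at -0.76, Abcc4 at 0.092, Slc7a2 at 4.71, Eprs at 4.83 and Socs2 at 4.75. Its low values were Spon2 at -0.022, Hdhd3 at 0.18, Bdh1 at 4.33, Gpd1 at 6.68, Chdh at 1.18, Slco1b2 at 5.99 and Hadh at 4.56. In all 17 genes its value lay on the AAKO side of the other CTRL arrays. The array also stood apart on the first principal component, at 5.66, and had an unusual share of probes well above background, 61.8%.

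Of the other 10 values, Acot5 at -0.27 and Acot1 at 5.41 were the lowest of CTRL replicate 5's group, and CTRL replicate 3 gave a low Cyp2c70 at 4.58 and a high Psma1 at 5.23. In AAKO, replicate 6 gave a high Inhbe at -0.54 and a low Il1rn at -6.37, replicate 1 a high Atf3 at 1.92 and a low Herpud1 at 7.60, and replicate 3 a low Oasl1 at 0.36 and a low Slc7a2 at 5.40. AAKO replicate 4 had an unusual share of probes well above background, 58.5%.

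The genotype difference itself differed between conditions in 8104 genes (fasted against fed) and 7664 genes (fasted against CL316243). In 3 named genes it was called in opposite directions in fasted and CL316243-treated mice. Rgs16 differed by 3.66 and -3.36, a gap of 7.02. Per3 differed by 2.28 and -0.94, a gap of 3.22. Fasn differed by 0.74 and -0.72, a gap of 1.46.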

How the results depend on the processing

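Outside the wash batches, the other settings called between 11042 and 12089 genes, against 11848, and leaving out 1 array at a time between 11068 and 12457. With the replicate number as a block 11051 genes were called, and the cytosolic ribosomal proteins went from 13 to 4. Replicate numbers did not pair the samples, so the block has no basis in the design. Of the calls made from the deposited table, the share that was higher was 50.5%, against 44.6%. In that table the arrays share the same distribution within each group but not between groups, and its median difference over all genes was 0.01, against -0.03.

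Each wash batch holds 3 arrays per genotype, so fewer samples enter, and batch 2 holds CTRL replicate 2. Of all 24098 genes, batch 1 called 6845 (3118 higher, 3727 lower) and batch 2 called 4520 (2059 higher, 2461 lower), against 11848 in the main fit. Calls thus fell over all genes, and the list counts below are to be read against these totals. Each is out of the tested members given with its list above. Batch 1 called 3 thioesterases, 8 lipid droplet, 5 glycogen, 8 heat shock, 5 growth hormone, 12 methionine, 8 cell cycle, 3 tRNA synthetase, 2 cytosolic ribosomal, 25 mitochondrial ribosomal, 13 oxidative phosphorylation and 19 proteasome genes. Batch 2 called 9 uptake, 6 lipogenesis, 6 glycogen, 9 amino acid catabolism, 5 urea cycle, 10 ATF4, 3 reticulum, 6 growth hormone, 3 glucocorticoid, 9 bile acid, 9 P450, 5 acute phase, 5 interferon, 11 NRF2, 11 autophagy, 11 methionine, 4 immediate early, 7 cell cycle, 3 tRNA synthetase, 2 cytosolic ribosomal, 10 mitochondrial ribosomal, 2 oxidative phosphorylation and 14 proteasome genes. The median over probes called 5 reticulum genes, and leaving out 1 array called 9 to 14 cell cycle genes.

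Signs turned only in genes that had not been called: within batch 1, Scd1 (-0.22), Hspa5 (-0.084), Hspa1b (0.39), Cyp7a1 (-0.55), Cyp2b10 (0.20) and Saa2 (-0.071). Within batch 2 they were Cd36 (0.17), Fkbp5 (-0.027) and Mat1a (-0.020). On leaving out 1 array, Scd1 ran from -0.036 (without CTRL replicate 2) to 0.30 and Hspa1b from -0.29 to 0.024 (without CTRL replicate 4), and with the median over probes Hspa5 was at -0.046. The cause was not tested. Signal over background limits genes not well above background in 1 genotype to bounds.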

Other observations

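Of 14420 protein-coding genes tested, 3588 were higher and 4292 lower in fasted AAKO livers (54.6% called), and of 966 long noncoding RNA genes 154 were higher and 262 lower (43.1% called). The protein-coding median was -0.03 and the long noncoding median -0.08. Among 16 transcripts of the mitochondrial chromosome 1 was called, higher in AAKO (6.25%). Small RNA classes were represented by few probes, and of 11 snoRNA genes 2 were called, both higher.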
